A study of Homo sapiens with 8 samples.

Results

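The HOX clusters are 4 groups of neighbouring homeobox genes, and LSD1 occupancy across them was examined in MDA-MB-231 cells and their RCOR2-KO1 derivative. The members are the LSD1 summits inside 4 fixed windows of hg19, defined by position, with no measured value in the rule: HOXA on chromosome 7 from 27120000 to 27260000, HOXB on chromosome 17 from 46595000 to 46815000, HOXC on chromosome 12 from 54320000 to 54460000 and HOXD on chromosome 2 from 176945000 to 177065000. These windows span 620 kb and stand for 38 listed HOX genes. They held 45 of the 201526 summits in the 4 lists, which fell into 17 of the 68148 regions obtained when summits at most 500 bp apart were joined across lists.

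HOX genes encode homeodomain transcription factors that give body regions their identity along the head-to-tail axis, and their order on the chromosome follows the order of their expression domains. Genes of low number act toward the head (HOXA2 and HOXB1 pattern the hindbrain), and genes of high number act in the tail end, the limbs and the urogenital tract (HOXA13 and HOXD13 pattern the digits). In differentiated cells many HOX genes are held silent by Polycomb proteins, which deposit a repressive mark on histone H3, while trithorax-type enzymes methylate lysine 4 of histone H3 at the active ones. LSD1 (also called KDM1A) removes methyl groups from lysine 4 and works in corepressor complexes with CoREST proteins, of which RCOR2 is a member. HOTAIR, a long noncoding RNA transcribed from the HOXC cluster, is known for binding both Polycomb and LSD1 complexes.

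MDA-MB-231 is a human triple-negative breast cancer cell line. Parental cells and the RCOR2 knockout line KO1, both with no treatment named in the labels and grown in the same serum-containing medium, were profiled by CUT&RUN with an antibody against LSD1, in which an antibody-tethered nuclease releases the bound chromatin for sequencing. Each genotype had 2 libraries, and nothing in the labels states whether these came from separate cultures. The study's methods state that several knockout clones were mixed, in a passage on another cell line, and refer to earlier work for MDA-MB-231, so whether KO1 is 1 clone or a mixture is unclear, and the summit lists hold no measure of RCOR2 itself. Libraries made with normal rabbit IgG served the authors as input and were not analysed here. The lists held between 47354 and 54467 summits, and the sequencing depth behind them is unknown. Replicate lists shared no summit with the same base and the same value.

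A summit is the base of highest signal in a peak. Its strength is given as a percentile, which is the share of its own list at or below its −log10 p or q value, so that 50 is the middle of the list and 100 the strongest peak. Values of different libraries were compared as percentiles because the −log10 values depend on depth. A gene annotation of hg19 was not used here, so a summit is given by its hg19 position and by the side of the cluster on which it lies, and not by gene, exon or intron. The order of the genes was taken from the RefSeq annotation of GRCh38.p14, whose coordinates were not used. From low to high coordinates HOXA runs from HOXA2 to HOXA13 and HOXB from HOXB1 to HOXB13. In the same direction HOXC runs from HOXC13 to the group of HOXC4, HOXC5 and HOXC6, and HOXD from HOXD13 to HOXD1. Genes were sorted by the lowest coordinate of each record, so the order among HOXC4, HOXC5 and HOXC6 was not taken from it.

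Most LSD1 summits at the HOX clusters were weak. Parental replicate 1 had 11 summits in the 4 windows, parental replicate 2 had 12, KO1 replicate 1 had 11 and KO1 replicate 2 had 11. Parental cells thus had 0.185 ± 0.0114 summits per 10 kb and KO1 cells 0.177 ± 0 (SD, n = 2). Only 10 of the 45 summits (22.2%) lay above the middle of their list, 2 lay above percentile 75 and 0 above percentile 90. By definition about 50%, 25% and 10% of a whole list lie above these levels. The median percentile of the HOX summits was 24.2 and 31.3 in the parental lists (replicates 1 and 2) and 24.4 and 27.8 in the KO1 lists. Every library therefore had its HOX median in the lower part of its list. The clusters differed, and the 10 summits above the middle all lay at HOXB and HOXC, in 3 regions. A region counts once for each list that holds it. HOXB had the highest median of the clusters in every library, at 34.2 and 52.5 in parental and 43.8 and 41.9 in KO1 lists.

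**Figure D1:**
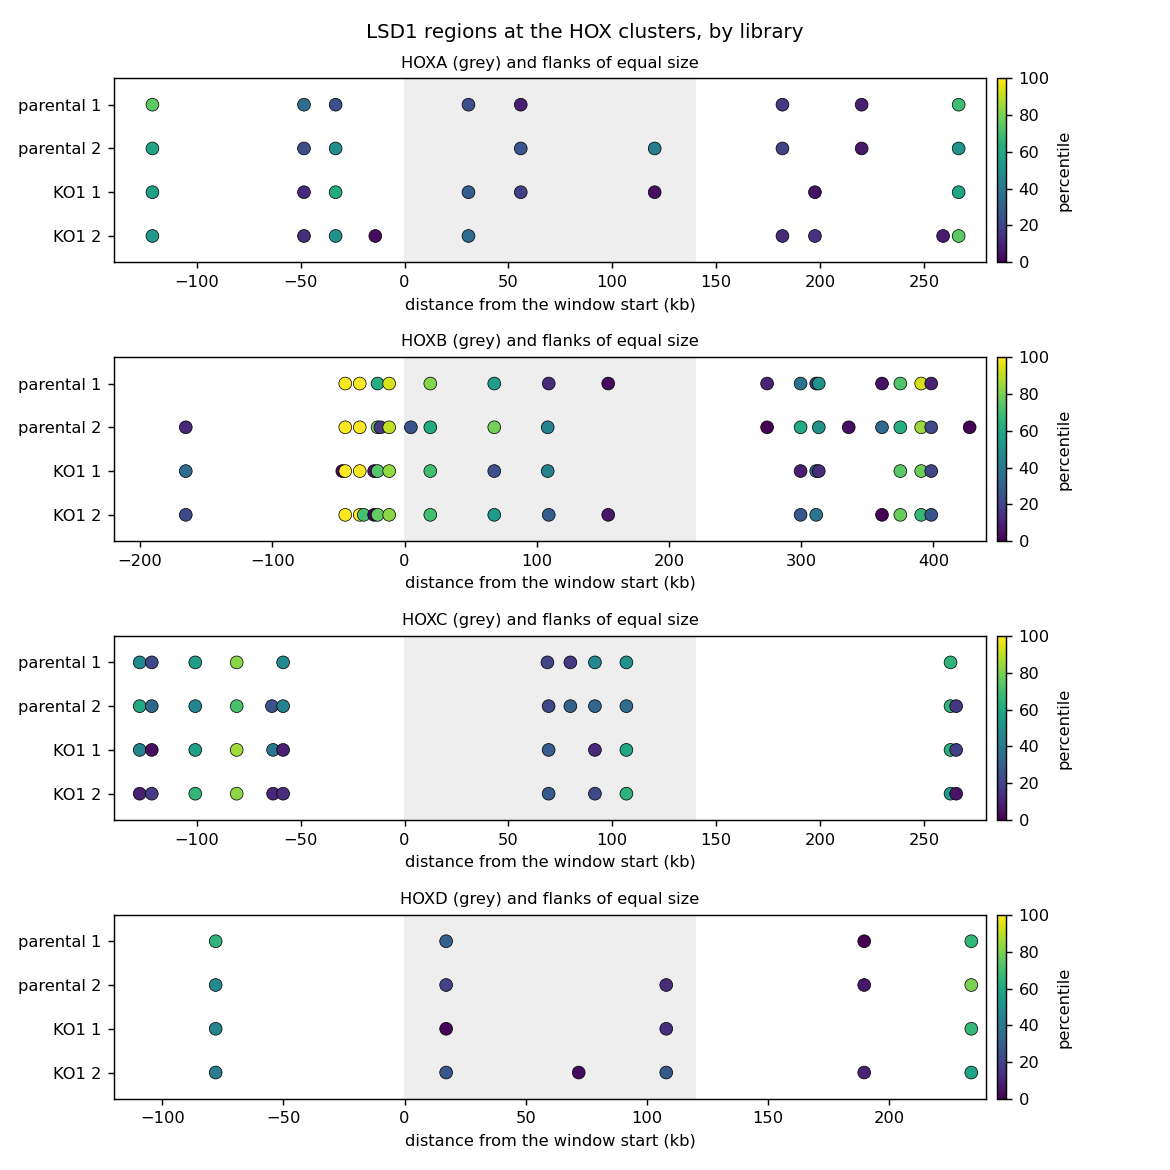
Position of LSD1 regions in each library, with distance from the start of the window in kb on the x axis and the 4 libraries on the y axis; grey marks the HOX window, white its flanks, and colour the percentile within the list. Regions in the grey areas are mostly dark, with the highest at percentile 81.5, whereas the lower flank of HOXB holds regions above percentile 99.

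Presence varied between libraries. Of the 17 regions, 5 were found in all 4 lists, 4 in 3 lists, 5 in 2 lists and 3 in 1 list. Over all regions, 52.6% were found in all 4 lists and 21.7% in 1 list only. The share in every list was 29.4% for the HOX regions, a count over 17 regions that was not tested. Presence moved with strength over the genome. Among regions that never exceeded percentile 50, 19.6% were in all 4 lists, and 2 of the 14 such HOX regions were. Among regions that did exceed it, 84.3% were in all 4 lists, and 3 of the 3 such HOX regions were. Regions were divided by their highest percentile in any list, and a region in more lists has more chances to exceed 50. Part of this contrast therefore follows from the division itself. The libraries that shared most HOX regions were not of 1 genotype. Parental replicate 2 and KO1 replicate 1 shared 10 of 13 regions, against 7 of 16 for the parental pair and 8 of 14 for the KO1 pair. Over all regions the order was different, with 67.9% shared by parental replicate 2 and KO1 replicate 1, 72.4% by the parental pair and 74.5% by the KO1 pair.

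HOXA, whose genes include the leukaemia-associated HOXA9 and the limb and genital tract genes HOXA11 and HOXA13, had no region found in all 4 lists. It held 3 regions in part of the lists. The first, on chromosome 7 between 27150509 and 27151036 in the lower part of the window, on the HOXA2 side, had percentiles of 24.2 in parental replicate 1 and of 28.6 and 34.7 in the KO1 lists, with no summit in parental replicate 2. The second, between 27175691 and 27176177, had 8.50 and 25.9 in the parental lists and 19.1 in KO1 replicate 1. Both were weak wherever they appeared. The last, between 27240204 and 27240592 on the HOXA13 side, was at 41.1 in parental replicate 2 and at 3.43 in KO1 replicate 1. No summit of any list lay in the 64.0 kb between the last 2 regions, a stretch that takes up 45.7% of the window.

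HOXB, which spans the hindbrain gene HOXB1 and the prostate lineage gene HOXB13, held the strongest LSD1 summits of the 4 clusters. The strongest region, on chromosome 17 between 46614439 and 46614517 near the HOXB1 end, was at percentiles 81.5 and 61.1 in the parental lists and at 69.6 in both KO1 lists. The KO1 values lay between the parental ones, with a mean of 69.6 ± 0.0169 in KO1 cells. The next, between 46662830 and 46662880, was at 55.8 and 78.8 in the parental lists and at 24.4 and 54.6 in the KO1 lists. Both parental libraries were above both KO1 libraries there, the closest values being 55.8 and 54.6, and the difference of means was -27.8 points (p = 0.333 by a two-sided exact permutation test, which cannot go lower with 2 libraries against 2).

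The other HOXB regions were in part of the lists only. A summit at 46599792, at the very start of the window, was in parental replicate 2 alone, at percentile 25.8. Between 46703236 and 46703307 a region was at 44.0 in parental replicate 2 and 43.8 in KO1 replicate 1, and 0.755 kb further on a separate region between 46704062 and 46704070 was at 12.5 in parental replicate 1 and 29.1 in KO1 replicate 2. Each library thus had 1 summit at this place, at either of these positions. A last weak region between 46749015 and 46749103 was at 2.90 in parental replicate 1 and 5.96 in KO1 replicate 2. Beyond it, the side toward HOXB13 had no summit of any list for 65.9 kb up to the end of the window. The lower side of the window, from its start to its midpoint, held 13 of the 15 HOXB summits.

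At HOXC, the part of the window that begins on the HOXC13 side was empty, and 10 of the 14 summits lay in the upper part, on the side of HOXC4, HOXC5 and HOXC6. HOXC13 is known for its role in hair and nail formation. The first 68.8 kb of the window, 49.1% of its length, had no summit in any list. Together with the lower flank, the empty stretch was 127 kb, longer than 93.4% of the stretches between neighbouring regions over the genome, whose median was 13.3 kb. At the other end, the stretch from 54426921 across the upper edge of the window to 54582724 was also empty. At 156 kb it was longer than 95.0% of stretches, and 33.1 kb of it lay inside the window. Other window edges also met long stretches, of 120 kb above HOXB (longer than 92.8%) and 94.7 and 81.3 kb beside HOXD (90.4% and 88.4%). Those at the HOXA edges (44.6 and 61.3 kb) and below HOXB (16.4 kb) ranked lower, at 78.2%, 84.1% and 55.1%. Fixed edges fall more readily in long stretches than in short, so these ranks do not show HOXC to be unusually empty. The HOXC region with the highest mean percentile, on chromosome 12 between 54426641 and 54426921, was at 50.7 and 34.8 in the parental lists. In the KO1 lists this region was at 59.8 and 64.5. It was higher in both KO1 libraries, by 19.4 points on average (two-sided exact permutation p = 0.333). A further 14.6 kb down, the region between 54411253 and 54412019 moved the other way. It was at 47.2 and 31.7 in the parental lists and at 11.5 and 22.2 in the KO1 lists, a difference of -22.6 points (two-sided exact permutation p = 0.333).

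Another HOXC region, between 54399806 and 54399817, was at 15.9 and 30.9 in the parental lists and had no summit in the KO1 lists. It was the only HOX region found in both lists of 1 genotype and in neither of the other. Such parental-only regions made up 4.24% of all regions, and KO1-only regions, of which the HOX windows had 0, made up 3.62%, so that 1 and 0 of 17 regions are close to the share at large. The remaining HOXC summits lay at 54388767 in parental replicate 1, at percentile 20.4, and 0.538 kb further on between 54389305 and 54389386, at 20.7 in parental replicate 2 and at 29.1 and 27.8 in the KO1 lists. At these adjoining positions, too, each of the 4 libraries had 1 summit.

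HOXD, whose genes HOXD9 to HOXD13 act in limb and digit patterning, had the lowest median percentile when averaged over the libraries of each genotype. This mean was 23.2 in parental and 17.1 in KO1 cells, over 1 to 3 summits per library. In parental replicate 1 alone, the HOXD median of 30.3 was above the HOXA median of 16.3. The region on chromosome 2 between 176961868 and 176962442, on the side of HOXD13, was in all 4 lists, at percentiles of 30.3 and 19.9 in parental and 0.910 and 27.0 in KO1 cells. KO1 replicate 2 lay between the parental libraries and KO1 replicate 1 far below them. On the HOXD1 side, the region between 177052670 and 177053272 was at 12.4 in parental replicate 2 and at 13.6 and 27.8 in the KO1 lists, with no summit in parental replicate 1. Between these ends there was a single summit, at 177016857 in KO1 replicate 2 with a percentile of 2.70. No HOXD summit was above percentile 30.3 in any library.

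**Figure D2:**
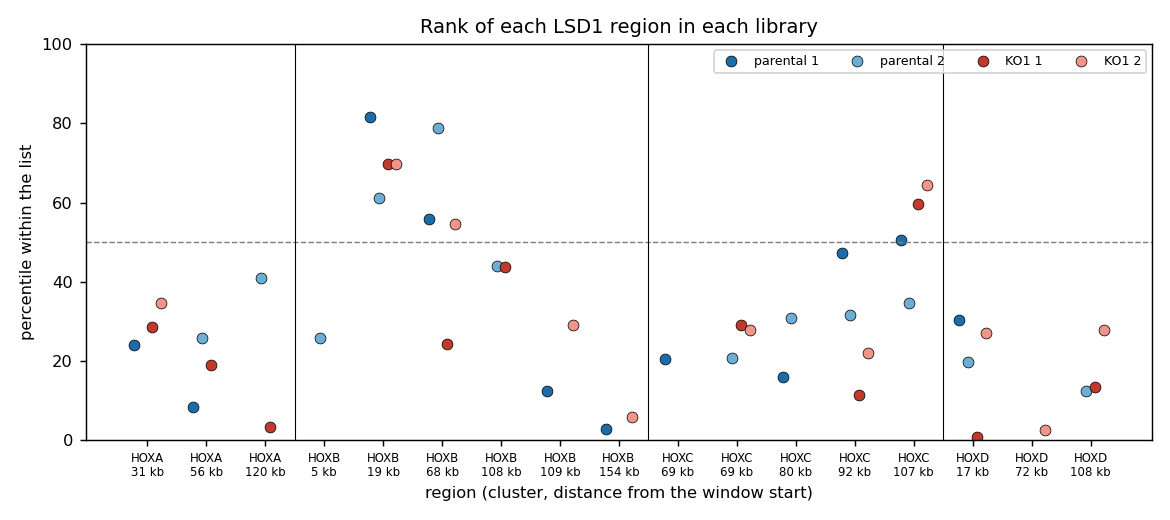
Percentile within its list, on the y axis, of each of the 17 HOX regions in each library, ordered along the x axis by cluster and distance from the window start; each point is 1 library and the dashed line marks percentile 50. The HOXB regions at 19 and 68 kb and the HOXC region at 107 kb are the only ones with points above the line.

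The positions of the summits within a region also differed between clusters. Of the 14 HOX regions found in at least 2 lists, 7 had summits over 250 bp apart, against 19.8% of such regions over the genome and 6 of 32 in the flanks. All 3 such HOXA regions and both HOXD regions exceeded 250 bp, with medians of 486 and 588 bp, and 2 of the 4 HOXC regions did. The HOXB summits coincided more closely, with a median of 71 bp and 0 of 5 regions over 250 bp. Over the genome, the share was 21.7% among regions that never exceeded percentile 50 and 18.8% among the others, and 6 of the 11 HOX regions that never exceeded it were over 250 bp. The limit of 250 bp was chosen after these values were seen, and regions are not independent replicates, so no test is given.

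Windows of equal size on either side of each cluster served as the comparison. The HOXB window had 0.170 summits per 10 kb over the 4 libraries against 0.301 ± 0.0286 in its flanks, and the cluster was lower in 4 of 4 libraries (difference -0.131 ± 0.0341, n = 4 libraries; two-sided exact sign-flip permutation p = 0.125, below which 4 libraries cannot go, adjusted p = 0.5 over the 4 clusters). HOXA had 0.143 against 0.223 ± 0.0449 and was lower in 3 of 4 libraries (exact permutation p = 0.25, adjusted p = 0.5). The HOXA difference of -0.0804 was -0.0357 without KO1 replicate 2. HOXC had 0.250 against 0.268 ± 0.0357, lower in 2 libraries and higher in 1 (exact permutation p = 1), and stood between a lower flank of 0.411 and an upper flank of 0.125. The HOXC difference of -0.0179 rests on the choice of flanks, being -0.129 with flanks of 2 times the size and -0.161 against the denser flank (exact permutation p = 0.125 for each). HOXD had 0.167 against 0.115 ± 0.0208, higher in 3 of 4 libraries (exact permutation p = 0.375, adjusted p = 0.5). No difference passed the threshold, which the design cannot reach. In the upper 50% of each list the HOXD difference turned to -0.0521, so that every cluster then had fewer summits than its flanks. No HOXA or HOXD summit was left in its cluster after this cut, so the difference there could not be positive.

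**Figure D3:**
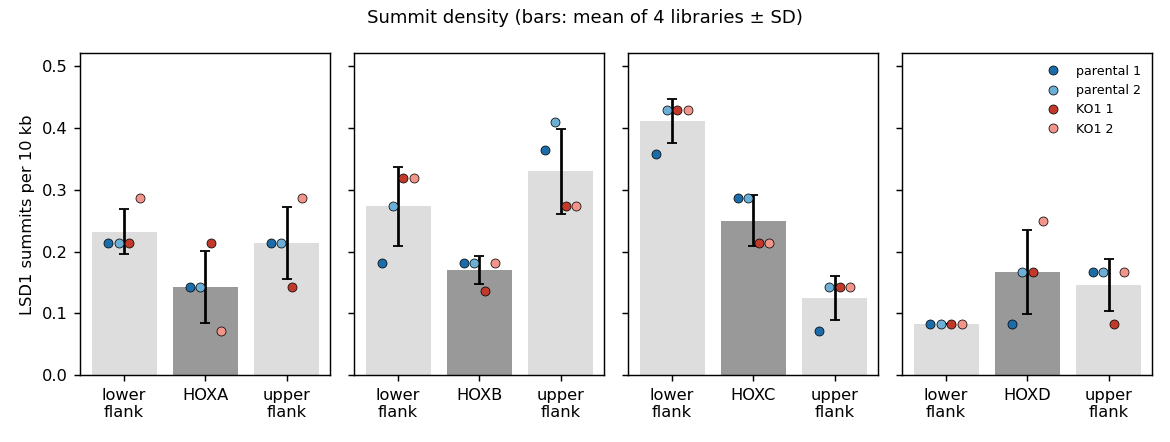
LSD1 summits per 10 kb, on the y axis, in each HOX window and in its lower and upper flank of equal size; bars are the mean of the 4 libraries, error bars the SD, and points the libraries. HOXB lies below its flanks, at 0.170 against 0.301 for both flanks together, and HOXD above them, at 0.167 against 0.115.

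Taken over all flanks, the summits were stronger than in the clusters, but this did not hold at each flank. Of the 119 flank summits, 55 (46.2%) lay above percentile 50 and 11 above percentile 90, against 10 and 0 of the 45 HOX summits. These counts pool the 4 lists, so a region found in several lists counts several times and the summits are not independent. The median percentile over the flanks was 51.5, 46.7, 45.0 and 32.9 in parental replicates 1 and 2 and KO1 replicates 1 and 2, above the HOX median in each library and by 17.1 points on average. At HOXB the median percentile of the cluster was above that of the upper flank (26.9 and 34.6 in the parental and 27.3 and 32.9 in the KO1 lists) in 4 of 4 libraries, and below that of the lower flank (96.6 and 84.1 in the parental and 73.4 and 76.1 in the KO1 lists) in 4 of 4. All 11 flank summits above percentile 90 lay in the HOXB flanks, 10 of them in the lower one. The strongest lay below HOXB, on the side where SKAP1 is the next protein-coding gene in RefSeq. The region between 46549920 and 46550345 was at percentile 99.3 or higher in all 4 lists, and that between 46561033 and 46561186 at 99.7 or higher. A nearer region, between 46583355 and 46583375, was at 93.8 and 90.4 in the parental and 83.8 and 82.7 in the KO1 lists. Each of these values was above that of the strongest HOXB region in the same library.

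Set against windows of the genome that held a summit, the HOX windows were ordinary in number. When the chromosomes were laid out in windows of the same size and those with at least 1 summit were kept, the HOXA window, with a mean of 2 summits per library, had more than 36.8% of them, and the HOXD window, also with 2, more than 40.6%. HOXB had a mean of 3.75 summits, equal to the median window of 220 kb, and HOXC had 3.5 against a median of 2.5. On chromosome 17, however, which has a median of 6.25 summits in windows of this size, HOXB had more than 25.1% of windows only. Of the 62 bins of 10 kb in the HOX windows, 15 (24.2%) held a summit of any list, against 17.7% of bins over the genome. Bins with no summit were counted here. Counting windows with no summit as well would raise the shares of windows given above.

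**Figure D4:**
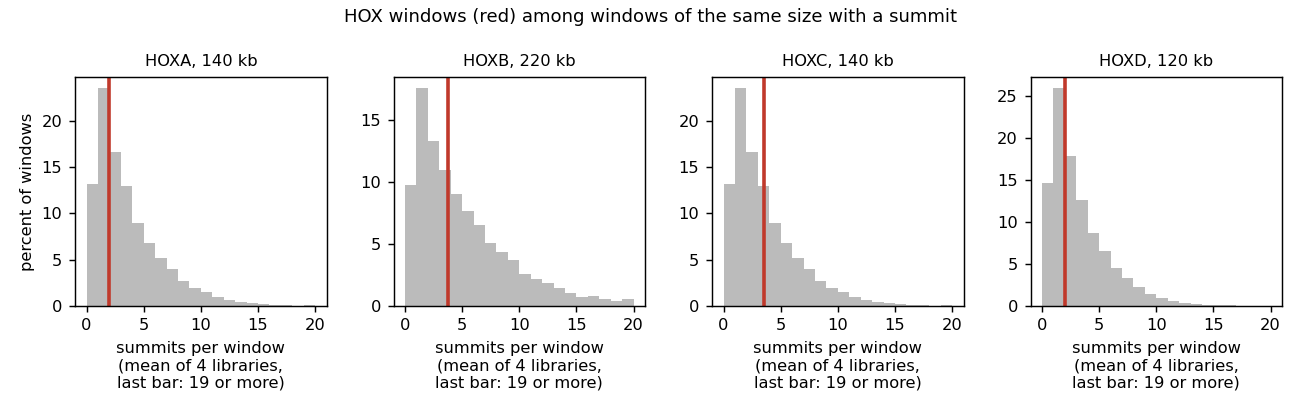
Distribution of the number of LSD1 summits (x axis, mean of the 4 libraries) over windows of the size of each HOX window that hold at least 1 summit, with the percent of windows on the y axis; the last bar holds windows with 19 or more, and the red line is the HOX window. The HOX windows lie within the bulk of the distribution, HOXA and HOXD at 2, HOXC at 3.5 and HOXB at 3.75 summits.

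Whether LSD1 at the HOX clusters depends on RCOR2 was addressed by comparing KO1 with parental cells. The number of summits did not separate the genotypes at HOXA, HOXB and HOXD. HOXA had 2 and 2 summits in the parental and 3 and 1 in the KO1 lists, HOXB 4 and 4 against 3 and 4, and HOXD 1 and 2 against 2 and 3. At HOXC the parental lists had 4 and 4 summits and the KO1 lists 3 and 3, a difference of -0.0714 per 10 kb (two-sided exact permutation p = 0.333, adjusted p = 1 over the 4 clusters). This equals the parental-only region. In the upper 50% of each list the HOXC difference was 0.0357, of the opposite sign.

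The strength of the summits was compared in the same way. The median percentile of the HOXC summits was 33.8 and 31.3 in parental and 29.1 and 27.8 in KO1 cells, and the groups did not overlap (difference -4.10, exact permutation p = 0.333, adjusted p = 0.889). At HOXB it was 34.2 and 52.5 against 43.8 and 41.9 (difference -0.486, exact permutation p = 1). At HOXA it was 16.3 and 33.5 against 19.1 and 34.7 (difference 2.0, exact permutation p = 0.667), and at HOXD 30.3 and 16.1 against 7.23 and 27.0 (difference -6.11, exact permutation p = 0.667). At HOXA, HOXB and HOXD the parental libraries differed from each other by more than the genotypes did, and the sign of the difference changed when a single library was left out. Without parental replicate 1 it was -6.59 at HOXA and 0.997 at HOXD, without parental replicate 2 it was 8.70 at HOXB, without KO1 replicate 1 it was 3.79 at HOXD, and without KO1 replicate 2 it was -5.81 at HOXA and 0.504 at HOXB. The mean percentile in place of the median gave 4.27 at HOXC, so the sign there rests on the summary used.

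Among the 5 regions found in all 4 lists, both parental percentiles were above both KO1 percentiles in 2 (the HOXB region near 46662830 and the HOXC region near 54411253) and the reverse held in 1 (the HOXC region near 54426641). Over all regions of 4 lists these shares were 22.4% and 19.6%. The HOX counts are too small to set apart from them. With 2 libraries against 2 no single difference can pass a threshold of 0.05, and a change that affects all summits of a list alike would not show in percentiles.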

How the data were processed

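LSD1 CUT&RUN was analysed in 2 libraries of MDA-MB-231 cells and 2 of their RCOR2-KO1 derivative. The submitters' processing notes name FastQC 0.11.2, Bowtie2 2.3.3.1, Picard, MACS2 2.1.0 and hg19. The authors called peaks per library and deposited 1 summit per peak with a −log10 p or q value, whose lowest was between 1.31 and 1.40. The caller's threshold is not given in the sources used here. The depth is unknown and no counting interval is given. The tables were handled in Python 3.11.15, pandas 2.3.3 and numpy 2.4.6 and plotted with matplotlib 3.10.9. Summits were ranked within their list and, on chromosomes 1 to 22 and X, joined into regions at gaps of at most 500 bp; a region takes its highest percentile per list. Joining was tested only on simulated lists of regions far apart, whose summits lay much closer together than the joining distance. Regions with spread or split summits, as found in the HOX windows, were not simulated.

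The rule for the windows uses position alone, but the choice of the HOX clusters, genes and tests was made with earlier results of these data known. Parental and KO1 libraries were set against each other in an exact permutation test, and clusters with their flanks by exact sign flips over the 4 libraries, with Benjamini-Hochberg adjustment over the 4 clusters. Every region in the windows is named, which includes the strongest, weakest and single-genotype regions the rule asked for. As alternatives, summits were limited to the upper 50% of a list or to the length of the shortest list, and further choices were joining at 250 and 1000 bp, scaling per 50000 summits, mean percentiles, percentiles within the chromosome, other flanks, each library left out and the replicate number as a block. Genes, the HOX cofactors named in the plan and sequences under summits need hg19 references and are not analysed here.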

Additional observations from a re-analysis of the deposited data

How the results depend on the processing

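Of 137 values recomputed under the alternatives, 107 kept their direction, or stayed within the replicate spread or within 1.5 times the count, 10 changed sign and 20 moved. In the upper 50% of each list, the HOXC density difference between genotypes was 0.0357, that at HOXD 0, and HOXD minus its flanks -0.0521. There, 1 region remained in every list, 0 were parental-only and 0 had genotypes apart in either direction. HOXA, HOXC and HOXD gave no median there, since libraries had no summit left. With lists cut to the shortest, the median difference at HOXB was 0.0591 and 1 region was KO1-only. Joining at 250 bp gave 3 regions in every list, 1 KO1-only region and 1 with parental above KO1. Joining at 1000 bp gave 7 regions in every list, since the split pairs at HOXB and HOXC joined, and 2 with KO1 above parental. Flanks of 2 times the size gave -0.129 for HOXC minus its flanks and the denser flank -0.161; lists cut to the shortest gave 0 at HOXC and at HOXD. With the mean in place of the median, the HOXC difference was 4.27.

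With each library left out in turn, the median difference ranged from -6.59 to 10.6 at HOXA and from -9.67 to 8.70 at HOXB. It ranged from -16.0 to 3.79 at HOXD. At HOXC it kept its sign, from -5.35 (without parental replicate 2) to -2.85 (without parental replicate 1). Cluster minus flanks ranged from -0.119 (without KO1 replicate 1) to -0.0357 (without KO1 replicate 2) at HOXA. At HOXB it ranged from -0.144 (without parental replicate 1) to -0.121 (without parental replicate 2 or KO1 replicate 1). The range at HOXC was from -0.0476 (without parental replicate 1) to 0 (without either KO1 replicate). At HOXD it was from 0.0278 (without KO1 replicate 2) to 0.0833 (without parental replicate 1). The parental-only count ranged from 1 to 2 and the KO1-only count from 1 to 2. Regions with KO1 above parental ranged from 1 to 4 and those with parental above KO1 from 1 to 3. A genotype left with 1 library met each definition by that list alone, a looser demand than with all libraries. A replicate block left the differences the same by construction (-6.11 points at HOXD), and 2 pairs cannot give a p below 0.5. Replicate numbers showed no pairing in the data: differences between replicates had a correlation of 0.00722 between genotypes across 35861 shared regions. Few summits per window and an unknown depth limit what could be seen.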
